A study of Mus musculus with 25 samples.

Results

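The genes described here are 10 markers of microglia, the resident macrophages of the brain, read in libraries of sorted neurons and sorted astrocytes, as a measure of residual myeloid RNA. They were chosen by name: Cx3cr1, Csf1r, Itgam, P2ry12, Tmem119, C1qa, C1qb, C1qc, Trem2 and Tyrobp. These are 10 of the 36528 gene IDs in the count tables, and all 10 had at least 1 count in some library.

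RNA was sequenced from the brains of mice aged 6 months that were transgenic for human MAPT, the tau gene, mutated to P301S (hMAPT-P301S, here P301S) or were their littermates lacking the transgene (non-Tg). Neurons were sorted as NeuN+ and astrocytes as Gfap+, and the 25 libraries fall into 8 non-Tg neuron, 6 P301S neuron, 6 non-Tg astrocyte and 5 P301S astrocyte libraries. A further sort of that experiment took Cd11b+ myeloid cells, whose libraries are not analysed here; Cd11b is the protein of Itgam. The sources used here do not give the promoter that drives the transgene, the sex of the animals, or how many animals went into a library, so p-values measure the spread between these libraries. Libraries are numbered in accession order, and the number carries no pairing.

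Microglia depend on the receptor tyrosine kinase encoded by Csf1r for survival, and they sense the neuronal chemokine fractalkine through Cx3cr1 and extracellular nucleotides through P2ry12. Trem2 is a lipid receptor that signals through the adaptor encoded by Tyrobp, Itgam encodes the alpha chain of complement receptor 3, and Tmem119 is a surface protein used to tell microglia from blood-derived macrophages. C1qa, C1qb and C1qc encode the 3 chains of C1q, the first component of the classical complement pathway, which in the healthy brain is made mainly by microglia.

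The 3 C1q genes lie side by side on chromosome 4 (GRCm38.p6, minus strand), with C1qb at 136880126 to 136886200, C1qc at 136889801 to 136892936 and C1qa at 136895916 to 136898844. Itgam spans chromosome 7, 128062640 to 128118491, on the plus strand. Promoters of 6 of the 10 members were taken from the RefSeq promoter table. C1qa, Csf1r, Tmem119 and Tyrobp were left out, so the count of matches below covers those 6 alone and not all members. The 250 bases before the start of Itgam and of C1qb are shown. These 2 genes had the highest Pearson correlation of any pair of members compared across neuron libraries. Capitals mark GAGGAA or its reverse complement TTCCTC, the core letters of the binding motif of PU.1, a transcription factor of myeloid cells.
Itgam, chr7:128062390-128062639, plus strand: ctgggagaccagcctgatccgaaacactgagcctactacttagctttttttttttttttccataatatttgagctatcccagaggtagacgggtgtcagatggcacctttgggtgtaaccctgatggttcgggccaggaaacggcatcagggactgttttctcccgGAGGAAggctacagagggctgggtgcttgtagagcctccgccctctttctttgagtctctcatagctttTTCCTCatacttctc
C1qb, chr4:136886201-136886450, minus strand: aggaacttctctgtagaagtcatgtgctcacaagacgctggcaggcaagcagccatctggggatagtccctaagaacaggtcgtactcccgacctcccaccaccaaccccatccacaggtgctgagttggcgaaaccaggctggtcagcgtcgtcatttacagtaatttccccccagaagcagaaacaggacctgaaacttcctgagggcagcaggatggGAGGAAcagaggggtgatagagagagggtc
These letters were found on either strand in 4 of the 6 member promoters (Itgam, C1qb, C1qc and Trem2, not Cx3cr1 or P2ry12), and in 23.3% of 32851 mouse promoters of the same length. The nearest match began 15 bases before the start of Itgam and 30 bases before that of C1qb. A match describes these letters and is not a site at which binding was measured.

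Markers of the sorted cells went with their labels. Of 10 neuron markers, 8 were higher in neurons than in astrocytes in each genotype, 7 of them in both (Stmn2 passed in non-Tg and Nefl in P301S brains), and all 10 astrocyte markers were lower in both (edgeR quasi-likelihood F test, adjusted p under 0.05). Rbfox3, which encodes NeuN, averaged 72.0 ± 22.1 CPM (SD, n = 8) in non-Tg neurons and 5.05 ± 3.96 (n = 6) in non-Tg astrocytes, and Gfap 2.44 ± 2.84 and 200.2 ± 104 CPM. CPM are counts scaled to a library total of 1e+06, with TMM factors over all 25 libraries. Total counts ran from 1245964 to 4453555 per library, so that 3 counts, used here as a floor, stood for 0.674 to 2.41 CPM.

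Every library of both sorts held a low level of counts from the microglial genes. The 10 members together took 59 to 572 counts, or 0.00153% to 0.0370% of a library. For single libraries the counting error of the share was small only beside the range over libraries. The share was 0.00153% in non-Tg neuron 8 (95% Wilson interval 0.00120% to 0.00194%) and 0.0370% in P301S neuron 1 (0.0341% to 0.0402%). Such intervals, like the floor, cover counting error only: without molecular identifiers, reads need not be independent molecules. In bulk libraries, fewer microglia among the sorted cells and less microglial RNA per cell cannot be told apart.

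The summed level of the 10 members was 12.8 CPM in the lowest, 67.4 in the median and 141 in the highest non-Tg neuron library, with a mean of 71.6 ± 52.2 (SD, n = 8). Across P301S neurons it was 51.5, 79.2 and 319.55 CPM, averaging 115 ± 102 (n = 6). Non-Tg astrocytes held 30.2, 58.3 and 82.7 CPM, mean 59.1 ± 20.6 (n = 6). P301S astrocyte libraries 1 to 5 held 85.9, 64.3, 187, 105 and 94.5 CPM, mean 107 ± 47.0 (n = 5). In rising order the means were those of non-Tg astrocytes, non-Tg neurons, P301S astrocytes, P301S neurons, and every neighbouring pair in this order had overlapping ranges and a difference smaller than the larger SD of the pair. The 2 astrocyte groups are not neighbours in it. Their means differed by 48.2 CPM, more than either SD. On this TMM scale 4 of 5 P301S libraries lay above the highest non-Tg library, which did not hold by library totals alone. The sum is a description of chosen genes and was not tested.

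Single libraries set the highest values. P301S neuron 1 stood at 319.55 CPM against 99.7 in the next P301S neuron library, and without it the group mean was 74.3 ± 20.5, close to the 71.6 of non-Tg neurons. P301S astrocyte 3 stood at 187 CPM, of which C1qb made 126, and without that library the group mean was 87.3 ± 17.2. Leaving C1qb out of the sum in all libraries, P301S astrocytes averaged 76.2 ± 17.9 CPM and non-Tg astrocytes 54.5 ± 17.2. P301S astrocytes 1 to 5 then held 76.7, 56.2, 61.1, 98.7 and 88.2 CPM, against at most 74.8 in non-Tg astrocytes. Markers of some other cell types were also higher in the P301S astrocyte group. Summed oligodendrocyte markers averaged 770.2 ± 382 CPM against 348 ± 128 in non-Tg astrocytes, and summed neuron markers 841 ± 185 against 639 ± 65.6. Each had 3 of 5 P301S libraries above every non-Tg one. Border macrophage and monocyte markers averaged 5.75 CPM in P301S against 3.77 in non-Tg astrocytes. Lower in P301S astrocytes were endothelial (9.29 against 16.7), lymphocyte (0.223 against 3.67) and neutrophil markers (5.07 against 6.05). The part of these markers in the member levels was not tested. P301S astrocyte 4 had a member share of 0.00560%, the lowest of its group, but 105 CPM after scaling, so its place in the group depends on the TMM factor. By library totals alone the P301S astrocyte mean was 83.7 ± 36.5 and the non-Tg astrocyte mean 55.5 ± 20.5. On that scale P301S astrocyte 3 (0.0145%) lay above the highest non-Tg astrocyte share (0.00832%). P301S astrocytes 1, 2, 4 and 5 (0.00830%, 0.00567%, 0.00560% and 0.00777%) did not.

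**Figure D1:**
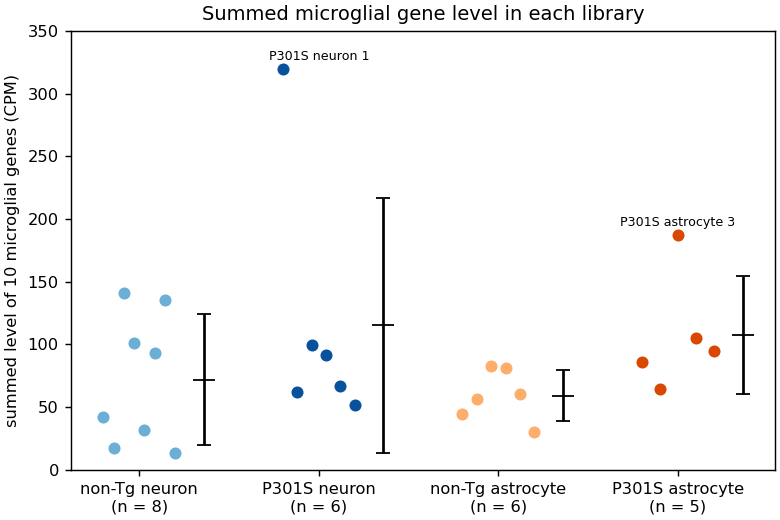
Each point is the summed level of the 10 microglial genes in 1 library (y axis, TMM-scaled CPM, linear from 0), by group; the black bar is the mean and SD. The ranges of the 4 groups overlap, and P301S neuron 1 (319.55 CPM) and P301S astrocyte 3 (187 CPM) stand above the other libraries of their groups.

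Among the members, the surface receptors carried most of the counts. Itgam made 23.6% of the 4841 member counts over all libraries, Cx3cr1 20.8%, Csf1r 15.3%, C1qb 14.9% and P2ry12 13.2%, together 87.8%. Of the 722 C1qb counts 340 came from P301S astrocyte 3, and without that library C1qb made 8.81% of 4336 member counts, below the 14.3% of P2ry12. C1qc made 5.47%, Tyrobp 2.21%, Tmem119 2.11%, Trem2 1.53% and C1qa 0.888%. Counts favour long transcripts, and per length, by the authors' size-factor-adjusted RPKM averaged over 25 libraries, C1qb came first with 1.98, followed by Cx3cr1 with 0.892, C1qc with 0.757, Itgam with 0.753 and P2ry12 with 0.704. Without P301S astrocyte 3 the C1qb mean was 1.26 RPKM, still the highest of the 10. Tyrobp stood at 0.573 RPKM, Csf1r at 0.544, Trem2 at 0.208, Tmem119 at 0.157 and C1qa at 0.121. C1qa, the first chain of the C1q cluster, was thus lowest on both scales: it had 0 to 6 counts per library and was below 3 counts in 18 of 25 libraries.

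Cx3cr1, Csf1r, Itgam and P2ry12 had at least 9 counts in every library. C1qb and C1qc were seen in all 25 libraries but fell below 3 counts in 4 and 3 of them. Tyrobp was at 0 in 8 libraries, C1qa in 4, Trem2 in 3 and Tmem119 in 2, and these 4 genes were below 3 counts in 11 to 18 libraries. Differences in them were mostly not detectable at this depth.

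**Figure D2:**
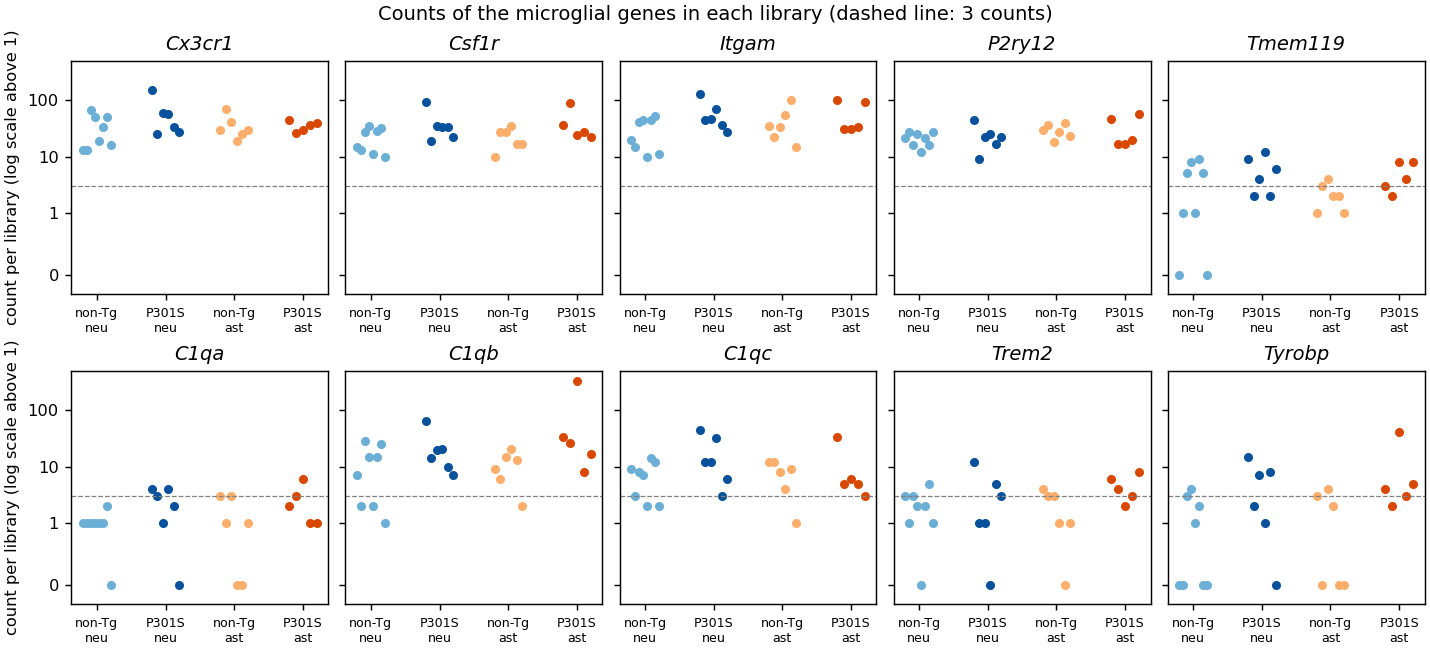
Counts of each member in each library (y axis, count, log scale above 1), with 1 panel per gene and the 4 groups along the x axis; the dashed line marks 3 counts. Cx3cr1, Csf1r, Itgam and P2ry12 stay above the line in all 25 libraries, C1qa falls below it in 18, and C1qb reaches 340 counts in 1 P301S astrocyte library.

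The first comparison asks whether sorted neurons from P301S brains held more microglial RNA than those from non-Tg brains. No member was called. In this comparison 1 of 10951 genes tested was called, 0.00913%, and 6 of the 10 members passed the filter on low counts (edgeR quasi-likelihood F test, filterByExpr, Benjamini-Hochberg adjusted p under 0.05). Of the 6, 1 had an unadjusted p under 0.05, as had 846 of the 10951 genes, and DESeq2 called 0 of the same 6. All 6 fitted log2 changes were above 0, with a median of 0.79 against -0.02 over all genes tested. Without P301S neuron 1, 3 of the 6 were below 0, and none was called.

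Cx3cr1, the fractalkine receptor, was 2.92, 14.1 and 47.2 CPM (lowest, median, highest) in non-Tg neurons and 11.6, 17.6 and 86.6 CPM in P301S neurons. The ranges overlapped, and the log2 change was 0.72 ± 0.58 (SE; adjusted p = 0.819, edgeR), or -0.01 without P301S neuron 1. Csf1r was 1.89, 11.2 and 21.7 CPM in non-Tg and 8.99, 13.3 and 52.5 CPM in P301S neurons, with a log2 change of 0.81 ± 0.50 (adjusted p = 0.744) that fell to 0.19 without that library. Itgam was 2.07, 16.3 and 35.3 CPM in non-Tg and 11.6, 21.7 and 72.6 CPM in P301S neurons, a log2 change of 0.86 ± 0.53 (adjusted p = 0.739), and 0.31 without it. For these 3 receptors the groups overlapped and the highest value was P301S neuron 1.

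P2ry12, the nucleotide receptor that steers microglial processes, moved least: 5.09, 10.4 and 13.1 CPM in non-Tg neurons and 4.26, 9.22 and 24.6 CPM in P301S neurons, a log2 change of 0.26 ± 0.33 (adjusted p = 0.889). C1qb was 0.189, 5.59 and 20.4 CPM in non-Tg and 3.01, 7.09 and 35.8 CPM in P301S neurons, with a log2 change of 0.77 ± 0.72 (adjusted p = 0.842) and -0.06 without P301S neuron 1. C1qc had the smallest p of the 6 members: 0.377, 3.96 and 8.15 CPM in non-Tg and 1.33, 5.72 and 25.1 CPM in P301S neurons, a log2 change of 1.31 ± 0.63 (unadjusted p = 0.0497, adjusted p = 0.645), and 0.66 without that library. Both C1q chains overlapped between genotypes, and 4 of 6 P301S libraries had more C1qc than the non-Tg average.

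The 4 members outside the filter were low in both genotypes. Tyrobp averaged 0.730 ± 0.934 CPM (n = 8) in non-Tg and 2.77 ± 3.14 CPM (n = 6) in P301S neurons, and Trem2, its receptor partner, 1.19 ± 1.14 and 1.86 ± 2.50 CPM. Tmem119 averaged 2.10 ± 2.11 and 2.61 ± 1.73 CPM, and C1qa 0.545 ± 0.395 and 1.08 ± 0.793 CPM. Fitted without a filter, Tyrobp had the largest log2 change of the 10 members, 2.12 ± 0.91 (adjusted p = 0.642), resting on 0 to 4 counts in non-Tg and 0 to 15 in P301S libraries.

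In astrocytes the genotype comparison again called no member. Of 12130 genes tested 66 were called, 0.544%, and 1629 had an unadjusted p under 0.05. Among the members 5 passed the filter, 1 had an unadjusted p under 0.05, and DESeq2 called none of 4 (it gave no adjusted p for C1qb). The 5 log2 changes were all above 0, with a median of 0.40 against 0.13 over all genes.

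C1qb gave the largest change of any member and the least even one. The 6 non-Tg astrocyte libraries ran from 0.663 to 10.3 CPM with a median of 3.32, while P301S astrocyte libraries 1 to 5 held 9.20, 8.11, 126, 5.98 and 6.30 CPM. All 5 exceeded the non-Tg average of 4.56, but the other 4 lay within the non-Tg range. The log2 change was 2.76 ± 0.89 (unadjusted p = 0.00539, adjusted p = 0.168, edgeR), and 0.71 (adjusted p = 0.768) without P301S astrocyte 3. The gene passed the threshold with no filter on counts (2.74, adjusted p = 0.0246) and when all 25 libraries shared 1 fit (2.81, adjusted p = 0.0408), so the call depended on these settings.

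Csf1r was 3.21, 7.06 and 17.1 CPM (lowest, median, highest) in non-Tg astrocytes and 10.0, 28.1, 8.88, 20.2 and 8.15 CPM in P301S astrocytes 1 to 5, a log2 change of 0.75 ± 0.69 (adjusted p = 0.667). The highest value was library 2, where Csf1r made 43.7% of the member counts, and without it the change was 0.40. Itgam was 4.97, 14.6 and 29.8 CPM in non-Tg and 27.9, 9.67, 11.5, 24.7 and 34.5 CPM in P301S astrocytes (log2 change 0.40 ± 0.62, adjusted p = 0.819). Its highest value was library 5, so a different P301S library led for each of C1qb, Csf1r and Itgam.

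Cx3cr1 was 7.22, 9.79 and 21.7 CPM in non-Tg and 12.3, 8.11, 11.1, 26.9 and 14.8 CPM in P301S astrocytes, a log2 change of 0.12 ± 0.62 (adjusted p = 0.956). P2ry12 was 7.62, 10.5 and 13.2 CPM in non-Tg and 13.1, 5.30, 6.29, 15.0 and 21.5 CPM in P301S astrocytes (log2 change 0.20 ± 0.64, adjusted p = 0.922). Both receptors overlapped between genotypes, and P2ry12 spread more widely in P301S (SD 6.66 CPM) than in non-Tg astrocytes (1.95), with 2 P301S libraries below and 2 above the non-Tg range. C1qc, not tested in this fit, averaged 2.79 ± 1.48 CPM (n = 6) and 3.57 ± 3.30 (n = 5), and Tyrobp 0.675 ± 0.848 and 4.20 ± 6.17 CPM.

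P301S astrocyte 3 was set apart by a few myeloid genes and not by the whole group. It held 340 counts of C1qb and 41 of Tyrobp, against 8 to 33 and 2 to 5 in the other P301S astrocyte libraries. The partner chains of C1qb did not share the excess, with 6 counts each of C1qa and C1qc. The ratio of C1qb to C1qc counts was 56.7 in this library and 0.50 to 5.67, median 1.43, in the other 24 libraries. Its Cx3cr1 (11.1 CPM), Itgam (11.5) and P2ry12 (6.29) lay within the range of non-Tg astrocytes or below it.

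Other genes of the fixed lists were also high in that library, named here after their values were seen. Cd68, a lysosomal protein of phagocytes, had 130 counts there and 4 to 38 in the other 4 P301S astrocyte libraries. Irf8, a myeloid transcription factor, had 61 against 3 to 6, and Syk, the kinase downstream of the Tyrobp adaptor, 78 against 2 to 19. The summed oligodendrocyte markers (1281 CPM) and neuron markers (1086 CPM) of that library were likewise the highest of the 11 astrocyte libraries. Its summed border macrophage markers (0.370 CPM) lay below the floor of 3 counts, as did those of P301S astrocyte 5 (0.370 CPM). What part these levels have in the C1qb value was not tested.

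**Figure D3:**
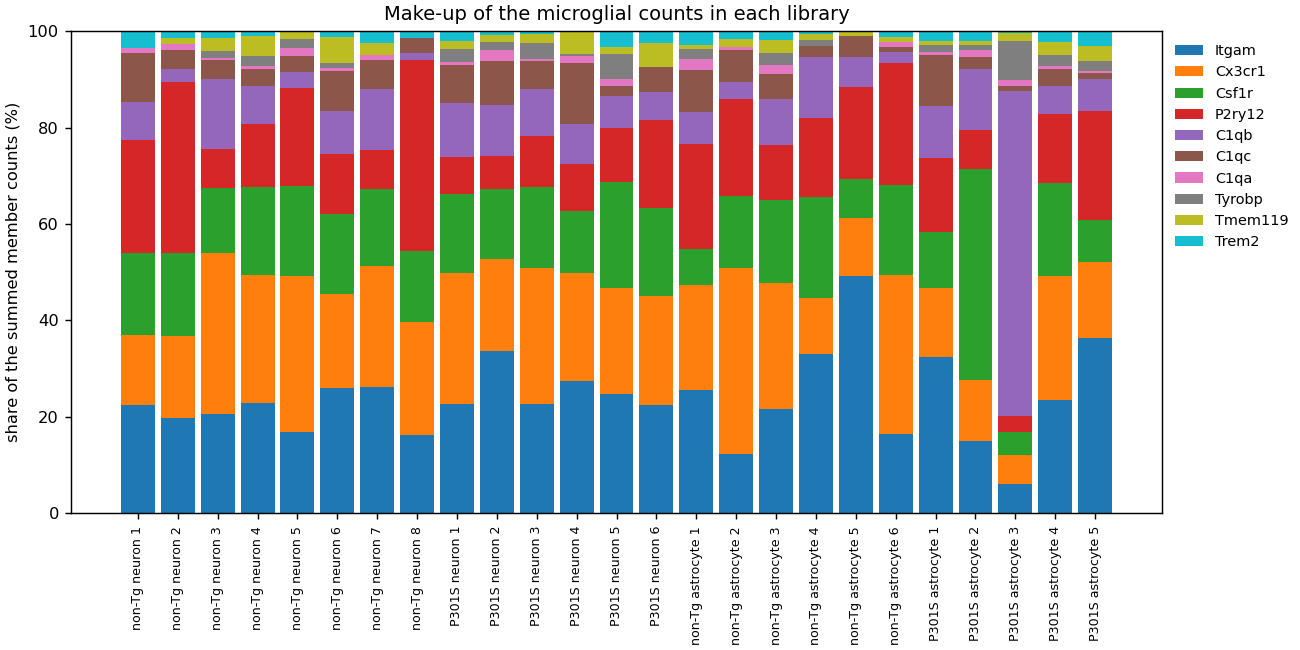
Share of each member in the summed member counts (y axis, percent), 1 bar per library. In neuron libraries Csf1r stays between 12.9% and 22.0%, and P2ry12 runs from 6.87% to 39.7%, highest in non-Tg neurons 8 and 2; C1qb takes 67.3% in P301S astrocyte 3 and Csf1r 43.7% in P301S astrocyte 2.

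The next comparisons set neurons against astrocytes within a genotype. Here 46.9% of 14197 genes were called in non-Tg and 52.3% in P301S brains, and none of the 6 members tested was called in either. No member had an unadjusted p under 0.05, and DESeq2 called none. Fitted log2 differences, neurons over astrocytes, had a member median of 0.39 in non-Tg and 0.36 in P301S brains against -0.11 and -0.21 over all genes. RLE scaling raised the all-gene medians by 0.19 and 0.13, so that differences of that size carry no direction.

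In non-Tg brains Itgam differed least, 16.5 ± 12.9 CPM (n = 8) in neurons and 16.3 ± 10.4 (n = 6) in astrocytes, a log2 difference of -0.01 ± 0.54 (adjusted p = 0.988) whose sign turned under RLE scaling (0.18). Cx3cr1 was 18.5 ± 16.2 and 13.2 ± 6.58 CPM (0.46 ± 0.55, adjusted p = 0.533), and Csf1r 11.5 ± 7.95 and 8.92 ± 5.56 CPM (0.35 ± 0.54, adjusted p = 0.628). P2ry12 stood at 9.27 ± 3.01 and 10.5 ± 1.95 CPM, a log2 difference of -0.19 ± 0.40 (adjusted p = 0.740) that was 0.0045 under RLE scaling. C1qb was 7.31 ± 7.74 and 4.56 ± 3.72 CPM, and C1qc 3.94 ± 3.08 and 2.79 ± 1.48 CPM. The SDs of the neuron group were the larger ones for each of these genes, and every pair of ranges overlapped.

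In P301S brains C1qb and C1qc pointed opposite ways. C1qb was 11.2 ± 12.3 CPM (n = 6) in neurons and 31.1 ± 53.0 (n = 5) in astrocytes, a log2 difference of -1.49 ± 0.87 (adjusted p = 0.149) that turned to 0.57 without P301S astrocyte 3. C1qc was 8.67 ± 8.81 and 3.57 ± 3.30 CPM, a difference of 1.25 ± 0.76 (adjusted p = 0.171). Leaving out P301S astrocyte 1, which held 33 of the group's C1qc counts, gave C1qc 2.06 (adjusted p = 0.0404), and leaving out P301S neuron 1 gave C1qb -2.31 (adjusted p = 0.0376); both calls rest on which library is left out. Cx3cr1 was 28.9 ± 29.0 and 14.6 ± 7.28 CPM (0.99 ± 0.62, adjusted p = 0.179, and 0.27 without P301S neuron 1).

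Csf1r was 19.0 ± 16.7 CPM in P301S neurons and 15.1 ± 8.76 in P301S astrocytes (0.33 ± 0.58, adjusted p = 0.652). Itgam was 28.2 ± 22.3 and 21.6 ± 10.7 CPM (0.38 ± 0.60, adjusted p = 0.615), and P2ry12 10.9 ± 7.05 and 12.2 ± 6.66 CPM (-0.17 ± 0.45, adjusted p = 0.777). Over the 4 comparisons of groups and all 10 members, 40 of 40 pairs of ranges overlapped. Over all genes tested, the ranges lay apart in 0.21% for genotype in neurons, 2.14% for genotype in astrocytes, 31.2% between cell types in non-Tg and 29.7% in P301S brains.

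The change with genotype in astrocytes minus that in neurons was called for no member either, where 0.394% of 14197 genes were called (unadjusted p under 0.05 for 0 of 6; DESeq2 0). C1qb had the largest value, 2.14 ± 1.21 (log2; adjusted p = 0.421), followed by C1qc with -0.81 ± 1.03 (adjusted p = 0.769). Csf1r and P2ry12 had values of 0.02 ± 0.76 and -0.02 ± 0.60. The SEs of the 6 members ran from 0.60 to 1.21 on the log2 scale, which is wider than most of the values themselves.

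**Figure D4:**
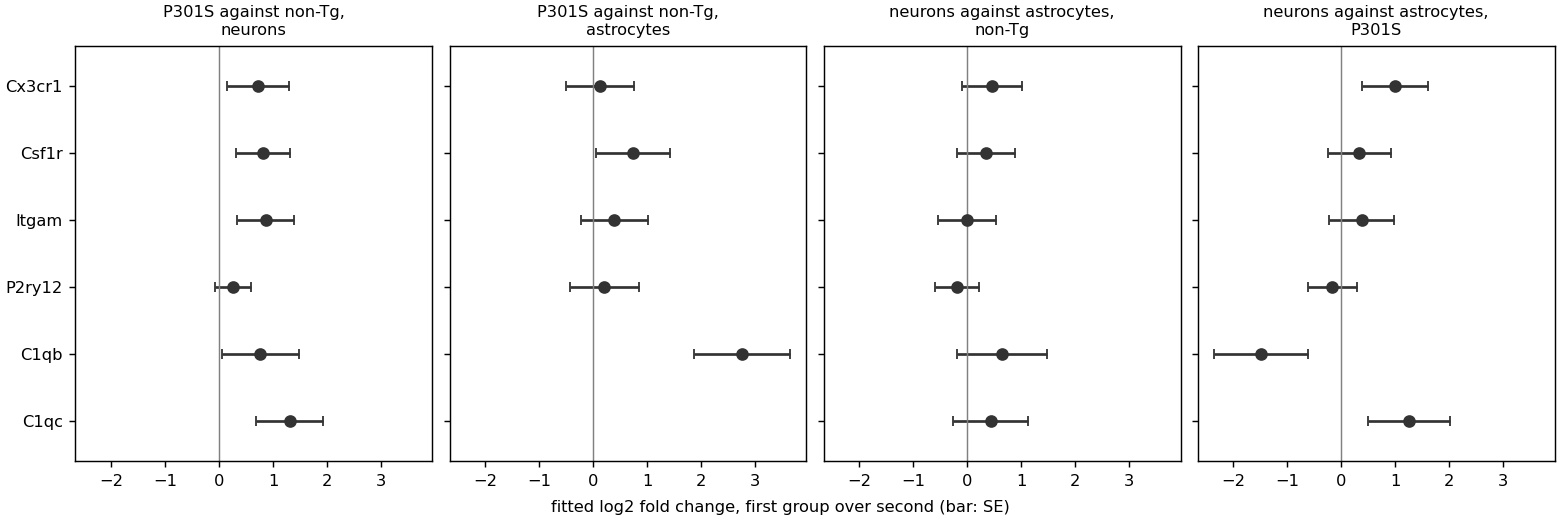
Fitted log2 differences (x axis) with SE for the members that passed the filter, 1 panel per comparison, first group over second. C1qb in astrocytes has the largest change (2.76 ± 0.89); none of the members passed an adjusted p of 0.05 in any panel, and C1qc was not tested in astrocytes.

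The members were spread widely over the neuron libraries, and they varied together. From the lowest to the highest of 14 neuron libraries Cx3cr1 spanned 29.7-fold, Csf1r 27.8-fold, Itgam 35.0-fold and the summed members 24.9-fold. P2ry12 spanned only 5.77-fold. The order of libraries was shared: all 10 pairs among Cx3cr1, Csf1r, Itgam, P2ry12 and C1qb correlated, with Pearson's r of log2(CPM + 2) from 0.75 to 0.97.

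The pair with the highest Pearson's r was Itgam and C1qb, r = 0.97 and Spearman's rho = 0.95 over 14 libraries (permutation test, p = 1e-05 for both, the smallest that 100000 resamples can give; adjusted p = 3.33e-05 and 4.0e-05 over 20 relations). Without the 2 libraries farthest from the median of Itgam r was 0.96, and within genotypes it was 0.98 (n = 8) and 0.99 (n = 6). By rho, Cx3cr1 with Csf1r and Cx3cr1 with C1qb ranked higher (both 0.965). Cx3cr1 and Csf1r gave r = 0.96, and 0.93 without the 2 farthest libraries. The weakest pair was Itgam and P2ry12, r = 0.75 and rho = 0.75 (adjusted permutation p = 0.00436 and 0.00628), 0.67 without 2 libraries. Within non-Tg neurons r of the 10 pairs was 0.82 to 0.99, and within P301S neurons 0.75 to 0.99.

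Astrocyte libraries showed no such common order. Their median r over the same 10 pairs was 0.17, and 1 of 10 pairs passed, Itgam and P2ry12, with r = 0.72 and rho = 0.74 (n = 11; adjusted permutation p = 0.0221 and 0.0235) and r = 0.89 without the 2 farthest libraries. Cx3cr1 and Csf1r gave r = 0.28 (adjusted permutation p = 0.603), and Itgam and C1qb r = 0.18 (adjusted permutation p = 0.772), the latter 0.82 within the 6 non-Tg libraries; the P301S group has too few libraries for a value of its own. Levels spanned 3.73-fold for Cx3cr1, 8.74-fold for Csf1r and 6.93-fold for Itgam over the 11 libraries. Whether the correlations differ between the cell types was not tested. Per the labels' protocols, a sort typically gave 200 to 300 ng of RNA for neurons and 2 to 5 ng for astrocytes, and the part of this in the spread was not tested.

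**Figure D5:**
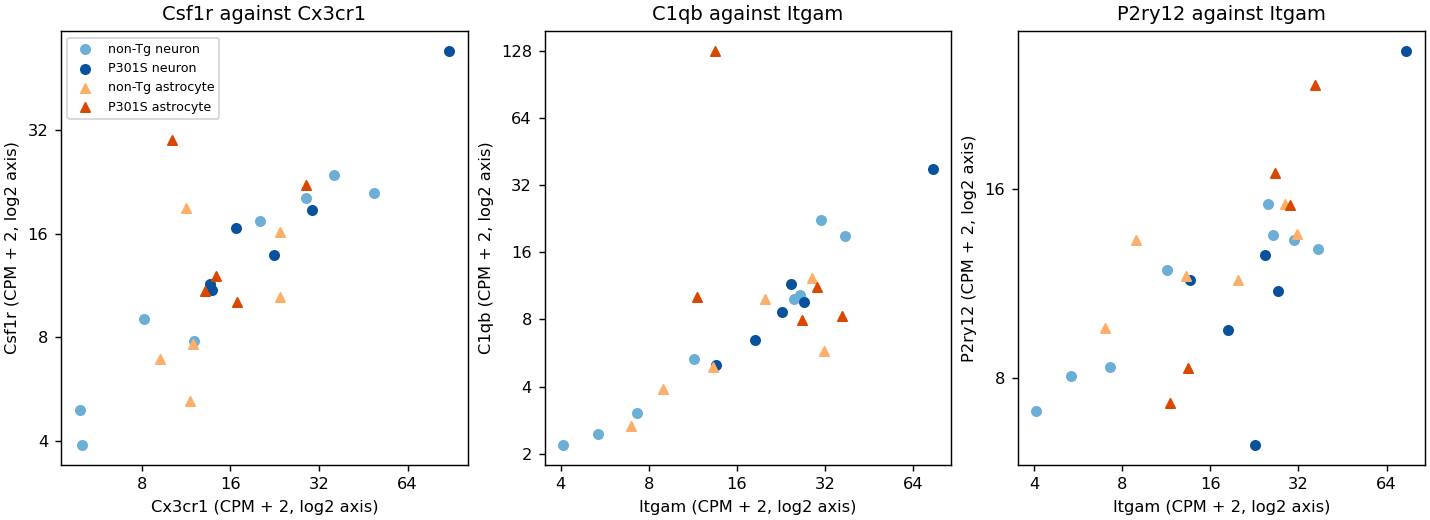
Levels of pairs of members in 25 libraries (CPM + 2, both axes log2), neurons as circles and astrocytes as triangles. Neuron libraries fall along 1 line for Csf1r against Cx3cr1 (r = 0.96) and C1qb against Itgam (r = 0.97), while astrocyte libraries scatter, with P301S astrocyte 3 far above the rest for C1qb.

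In neurons the shared order also went with depth, though CPM have the scaled total counts as their divisor. A negative relation can therefore arise from the scaling, whose part here was not tested. Before scaling, the members took 200, 199 and 572 counts in non-Tg neurons 3 and 7 and P301S neuron 1, the neuron libraries with the lowest totals. They took 76 and 68 counts in non-Tg neurons 2 and 8, with the highest totals. The fewest, 59, were in non-Tg neuron 5, with a total of 1830533. The summed member level and the log of total counts had r = -0.82 and rho = -0.76 over 14 libraries, r = -0.53 without non-Tg neurons 2 and 8, -0.93 within non-Tg and -0.63 within P301S neurons; in 11 astrocyte libraries r was -0.20. Non-Tg neurons 2 and 8, with 3566909 and 4453555 counts, had the lowest sums, 17.1 and 12.8 CPM. Non-Tg neurons 5 and 8 carry sample identifiers of another range than the other libraries, and their sums, 31.2 and 12.8 CPM, were among the 3 lowest of all neuron libraries. What part depth or handling has in the order was not tested.

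In neurons the composition of the member counts spanned less than their sum, and in astrocytes it did not. Over the 14 neuron libraries the shares of the 5 most counted members spanned from 1.70-fold (Csf1r) to 9.86-fold (C1qb, 1.47% to 14.5%), against 24.9-fold for the summed level. Over the 11 astrocyte libraries they spanned from 6.49-fold (Cx3cr1) to 30.6-fold (C1qb, 2.20% to 67.3%), against 6.20-fold for the sum. In neurons Csf1r made 13.5% to 18.6% of the member counts in the 8 non-Tg neuron libraries and 12.9% to 22.0% in the 6 P301S neuron libraries, and Itgam 16.2% to 26.1% and 22.5% to 33.6%. In astrocytes the Itgam share ran from 12.3% to 49.3% in non-Tg and from 6.14% to 36.5% in P301S libraries. The P2ry12 share in neurons had a median of 11.9% and was 39.7% in non-Tg neuron 8, where the sum was lowest, 35.5% in non-Tg neuron 2, 23.6% in non-Tg neuron 1, 20.3% in non-Tg neuron 5 and 18.3% in P301S neuron 6.

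P2ry12 lies wholly within Med12l, a gene on the opposite strand (chromosome 3, Med12l 59005825 to 59318682 in GENCODE, P2ry12 59216271 to 59262985 in RefSeq, both GRCm38), and the sources used here do not say whether counting used strand. Med12l was abundant and even, 181 ± 29.8 CPM (n = 8) in non-Tg and 205 ± 29.3 (n = 6) in P301S neurons; astrocytes held 156 ± 45.6 (non-Tg, n = 6) and 133 ± 35.3 CPM (P301S, n = 5). Reads of the 2 genes may not be separable in these counts, so P2ry12 levels are uncertain, above all in libraries with few other microglial counts. How much of the P2ry12 count this accounts for was not tested. RefSeq also lists Gm33858 as overlapping Cx3cr1, and Gm52352 and Mir6983 as overlapping Csf1r, and no gene overlapping the other 7 members. GENCODE adds Gm49368, a protein-coding model on the same strand as Itgam (chromosome 7, 128062683 to 128128160) that covers nearly all of it, and Hmgxb3 at the end of Csf1r. Its longer model of Cx3cr1 also reaches over neighbouring genes, among them Xirp1 and Csrnp1. What part such overlaps have in the deposited counts was not tested.

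Of 9010 named genes that passed the filter and are no members, the 6 with the highest Spearman correlation with the summed member level over 14 neuron libraries were Cd180 (rho = 0.98), Mertk (0.97), Fyb (0.96), Abi3 (0.95), Ikzf1 (0.95) and Cd84 (0.93), against a median of -0.05 over all 9010 genes. Cd180 encodes a Toll-like receptor homologue of myeloid and B cells, Mertk a receptor for engulfing dying cells, and Ikzf1 the lymphoid and myeloid transcription factor Ikaros. Siglech, a microglial lectin, was 7th (0.93) and Ptprc, the leukocyte antigen CD45, 16th (0.88). In 11 astrocyte libraries the 6 were Cdc123, Il17ra, Cd180, Dnlz, Nelfcd and Prelid3a (rho 0.91 to 0.95), and Cd180 was the 1 gene named in both cell types; Siglech ranked 55th of 10150, Ptprc 126th, Mpeg1 4638th (rho = 0), Sall1 5595th (-0.10) and P2ry13 6060th (-0.15). All values share a library's scaling, and they are given as descriptions.

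A further 24 microglial and myeloid genes, listed apart from the members, also had no call for genotype. Of these, 8 passed the filter in neurons and 8 in astrocytes, and none was called in either (edgeR; unadjusted p under 0.05 for 0 and 2; DESeq2 0 and 0), with median log2 changes of 0.40 and 0.72. Their summed level averaged 137 ± 27.4 CPM (n = 6) in non-Tg and 234 ± 55.1 (n = 5) in P301S astrocytes. Of the 5 P301S libraries 4 lay above every non-Tg one, P301S astrocyte 4 only slightly. In the highest, P301S astrocyte 2 (297.6 CPM), the gene Sall1 alone made 175.96 CPM. Sall1 averaged 68.0 ± 63.8 CPM in P301S astrocytes and did not follow the summed member level over astrocyte libraries (rho = -0.10). The sum without Sall1 was not taken, and the 2 lists were not compared by a test. In P301S neuron 1 the 24 genes summed to 393 CPM, the highest of the 14 neuron libraries, as did the members. Between cell types 1 of 12 was called in non-Tg and 3 of 12 in P301S brains. Sall1, a transcription factor of microglial identity, was lower in neurons in both (log2 difference -2.28 ± 0.50 and -2.36 ± 0.56, adjusted p = 2.74e-04 and 6.01e-04), at 42.4 ± 5.51 CPM in non-Tg astrocytes. Cd68 was lower in P301S neurons than in P301S astrocytes (-1.80 ± 0.55, adjusted p = 0.00643; 48.1 CPM in P301S astrocyte 3), and Gpr34, a microglial lipid receptor, higher (1.59 ± 0.57, adjusted p = 0.0200).

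Of 20 partners and signalling genes of the members, none of 6 tested was called for genotype in neurons, and 1 of 10 in astrocytes, C4b, a complement component cleaved downstream of C1q (log2 change 2.41 ± 0.28, adjusted p = 1.03e-04). C4b stood at 155 ± 66.8 CPM (n = 6) in non-Tg and 829.3 ± 144 (n = 5) in P301S astrocytes, far above C1qa and C1qc in the same libraries. Between cell types 9 of 12 were called in non-Tg brains, 8 of them lower in neurons, and 8 of 12 in P301S brains, 7 lower. Csf1, a ligand of the receptor Csf1r, was lower in neurons (log2 difference -2.64 ± 0.34 in non-Tg and -4.01 ± 0.40 in P301S brains, adjusted p = 5.94e-08 and 4.62e-10), at 60.0 ± 16.1 CPM in non-Tg and 140 ± 82.6 in P301S astrocytes. Cx3cl1, which encodes fractalkine, the ligand of Cx3cr1, was the 1 gene higher in neurons (3.24 ± 0.60 and 3.05 ± 0.65, adjusted p = 2.85e-05 and 1.96e-04), and is named after its values were seen. Il34, the other ligand of Csf1r, was not called (1.56 ± 1.02 CPM in non-Tg neurons and 2.74 ± 2.29 in non-Tg astrocytes, 2.02 ± 1.06 and 4.69 ± 5.31 in P301S brains), nor were the receptors.

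Of 14 genes known to rise in disease-associated microglia, those that passed the filter between cell types were mostly higher in astrocytes, which express several of them. Itgax, Cst7, Clec7a, Ccl6 and Lgals3 averaged at most 3.18 CPM in any group and did not pass it. Of 9 tested between cell types in non-Tg brains 9 were called, 8 of them lower in neurons, and of 9 in P301S brains 7, all lower. Apoe averaged 336 ± 117 CPM (n = 6) in non-Tg astrocytes and 6.39 ± 5.76 (n = 8) in non-Tg neurons (log2 difference -5.85 ± 0.49, adjusted p = 7.86e-12). With genotype, 1 of 8 rose in astrocytes, Gpnmb, a lysosomal glycoprotein (1.95 ± 0.39, adjusted p = 0.0200), from 38.6 ± 21.9 to 150 ± 38.3 CPM, and none of 4 was called in neurons.

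Markers of blood-derived and border cells were low, with single libraries above the floor. The 10 border macrophage and monocyte markers summed to 0.704 to 4.40 CPM in non-Tg neurons, 1.44 to 6.15 in P301S neurons, 1.33 to 10.3 in non-Tg astrocytes and 0.370 to 20.6 in P301S astrocytes, and none passed the filter in any comparison. The highest was P301S astrocyte 1, where Lyve1, a marker of perivascular macrophages, had 46 counts against 0 to 3 in the other 24 libraries. That library also had 122 counts (34.0 CPM) of Lyz2, a lysozyme of monocytes and macrophages. Lyz2 is not in this sum but among the further 24 microglial and myeloid genes above. The 8 lymphocyte markers summed to 0 to 8.96 CPM, and none passed the filter; the highest counts were in non-Tg astrocytes, 16 of Cd8a in library 3 and 13 of Cd3e in library 2. Ccr2, a chemokine receptor of monocytes, had 16 counts in non-Tg astrocyte 1. The 8 neutrophil markers summed to at most 31.8 CPM, in P301S neuron 1, where Csf3r had 50 counts. Of the 8 neutrophil markers 1 passed, Csf3r, which microglia also express; it averaged 6.77 ± 4.93 CPM (n = 8) in non-Tg and 11.6 ± 9.13 (n = 6) in P301S neurons and was not called (adjusted p = 0.723). What part such cells have in the member levels was not tested.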

How the data were processed

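RNA was sequenced from 25 libraries of sorted neurons and astrocytes. Each deposited table gives a raw count per Entrez gene ID (reads aligned uniquely to a gene model, per the file headers). It also gives RPKM that the authors adjusted by size factors, used here to order members per length. GSNAP and GRCm38 are named in the submitters' processing notes; the sources used here give neither versions nor strand. Of 36528 IDs, 31049 matched a RefSeq symbol (GRCm38.p6).

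Genotype was tested within a cell type, and cell types and the difference of genotype effects in 1 fit of 25 libraries, with edgeR 4.0.16 (R 4.3.3; TMM, filterByExpr, robust quasi-likelihood F test), with calls at p under 0.05 after Benjamini-Hochberg adjustment over all genes tested. SE is the log2 change over the square root of F. The procedure was tested on simulated data. Correlations used log2(CPM + 2) and 100000 permutations. Alternatives were RLE factors, DESeq2 1.42.0, no filter, a filter at 1 CPM, other sets of libraries in a fit, and leaving out libraries. Replicate libraries differed beyond sampling noise (lowest chi-square per degree of freedom 1.84). Named genes were the members, up to 4 genes of smallest p of a list with calls or its 2 most abundant, and 6 genes most like the members per cell type. Members and lists were chosen with earlier results of these data known. Some genes that the rule takes are left out of the text.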

Additional observations from a re-analysis of the deposited data

Results flagged for a closer look

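In groups of 4 to 10 libraries, a library was marked where its gap to the nearest other took an unusually large part of the group's range (Dixon's criterion). Of 44 combinations of a member, or the sum, with a group, 10 were marked. Chance marks about 1 in 20 where values are normally distributed, which CPM from low counts need not be. Members of 1 library are also not independent. P301S neuron 1 was marked for 7 of them: Cx3cr1 at 86.6 CPM (next library 28.3), Csf1r at 52.5 (next 16.8), Itgam at 72.6 (next 25.2), P2ry12 at 24.6 (next 10.5), C1qb at 35.8 (next 9.59), Trem2 at 6.70 (next 2.22) and the summed level at 319.55 (next 99.7). P301S astrocyte 3 was marked for C1qb at 126 CPM (next 9.20) and Tyrobp at 15.2 CPM (next 2.24). Non-Tg astrocyte 3 was marked for Tmem119 at 2.11 CPM (next 0.976), which is 4 counts.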

How the results depend on the processing

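Of 162 values recomputed under planned settings 149 kept their direction and their side of the threshold, 2 became called and 11 turned sign. Without single libraries the numbers were 540, 2 and 47 of 589. The count of members called stayed at 0 except in 3 places. For genotype in astrocytes it was 1 with no filter and 1 with all 25 libraries in 1 fit, both C1qb. For P301S neurons against P301S astrocytes it ran from 0 to 1 without single libraries: C1qc without P301S astrocyte 1, C1qb without P301S neuron 1. Over all genes, DESeq2 called 49 against 1 for genotype in neurons, 440 against 66 in astrocytes and 425 against 56 for the difference between them.

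Signs turned for members near 0. For neurons over non-Tg astrocytes Itgam was 0.18 (RLE), 0.19 (DESeq2), 0.051 (no filter), 0.11 (filter at 1 CPM) and 0.36 without non-Tg neurons 5 and 8, and P2ry12 0.0045 (RLE) and 0.0051 without those 2. For the difference of genotype effects Csf1r was -0.011 (filter at 1 CPM), and P2ry12 0.028 (RLE), 0.016 (DESeq2) and 0.15 without those 2.

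Without single libraries, log2 values ran as follows. For genotype in neurons, Cx3cr1 ran from -0.015 to 1.09, P2ry12 from -0.15 to 0.42 and C1qb from -0.056 to 1.22. For genotype in astrocytes, Cx3cr1 ran from -0.20 to 0.33 and P2ry12 from -0.088 to 0.41. For non-Tg cell types, Itgam ran from -0.21 to 0.29. For P301S cell types, Csf1r ran from -0.28 to 0.71, Itgam from -0.16 to 0.62, P2ry12 from -0.57 to 0.15 and C1qb from -2.31 to 0.57. For the difference of genotype effects, Cx3cr1 ran from -0.91 to 0.20, Csf1r from -0.35 to 0.64, Itgam from -0.66 to 0.15 and P2ry12 from -0.33 to 0.39. The cause of these turns was not tested. Low counts limit Tmem119, C1qa, Trem2 and Tyrobp, which passed the filter in no comparison.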
